A study of Homo sapiens with 8 samples.

Results

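Class I antigen presentation was followed through 9 genes: the heavy chain genes HLA-B, HLA-C, HLA-E and HLA-F, the light chain gene B2M, the peptide transporter genes TAP1 and TAP2, and the immunoproteasome subunit genes PSMB8 and PSMB9. They were chosen by symbol from a table of 58870 genes, and all 9 were found and passed the filter on low counts. RNA was sequenced from 8 samples of CFPAC-1, a long-established line of human pancreatic ductal adenocarcinoma. Cells carried an empty vector (n = 4) or an ADRA2A transgene (n = 4), which encodes the alpha-2A adrenergic receptor, a Gi-coupled receptor for adrenaline and noradrenaline. All 8 were grown for 72 hours in IMDM with 10% fetal bovine serum and 1% penicillin–streptomycin, and no drug was given. The promoter that drives the transgene, and whether each group is a clone or a pool, are not given in the sources used here. The comparison bears on how raised ADRA2A expression alters these cells, and the labels give no batch, so any difference between the vector line and the transgene line other than the transgene cannot be told apart from it.

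Class I molecules show peptides from inside the cell to CD8+ T cells. The proteasome cuts proteins into peptides, the TAP1–TAP2 transporter carries these into the endoplasmic reticulum, and the peptide-loading complex places them on a heavy chain paired with beta-2-microglobulin, after which the complex moves to the cell surface. Interferons raise most genes of the route, through factors such as IRF1 and the class I transactivator NLRC5, and loss of this route is a known way in which pancreatic and other carcinoma cells escape T cells.

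The windows of 250 bases before the RefSeq start (GRCh38.p14) were searched on both strands, since the 9 genes share regulators. Windows were found for 8 of the 9 genes, and HLA-E was not among them. The motifs were the interferon-stimulated response element (GAAA, any 2 bases, then GAAA), the gamma-activated site (TTCNNNGAA), the CCAAT box, the core of the X2 box of class I promoters (TGACGC) and the NF-kappaB site. Over all 35116 windows of this length they were present in 3.02%, 6.57%, 32%, 7.67% and 9.96%, in that order. The 5 windows below are shown because they stand before the light chain gene, both transporter genes and a classical and a non-classical heavy chain gene, HLA-B and HLA-F, whose values are compared further on; capitals mark the matches, and matches that touch or overlap run together.
HLA-B, chr6:31357180-31357429, minus strand: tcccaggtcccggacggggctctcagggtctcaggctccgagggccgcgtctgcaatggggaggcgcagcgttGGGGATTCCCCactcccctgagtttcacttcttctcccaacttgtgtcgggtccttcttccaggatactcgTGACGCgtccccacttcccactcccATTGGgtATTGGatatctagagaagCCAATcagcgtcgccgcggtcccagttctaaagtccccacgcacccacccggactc
HLA-F, chr6:29723184-29723433, plus strand: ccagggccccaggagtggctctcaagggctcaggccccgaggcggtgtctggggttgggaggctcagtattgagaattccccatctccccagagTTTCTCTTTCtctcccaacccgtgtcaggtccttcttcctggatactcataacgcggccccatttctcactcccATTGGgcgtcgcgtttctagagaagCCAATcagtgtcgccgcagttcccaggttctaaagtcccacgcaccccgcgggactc
B2M, chr15:44711267-44711516, plus strand: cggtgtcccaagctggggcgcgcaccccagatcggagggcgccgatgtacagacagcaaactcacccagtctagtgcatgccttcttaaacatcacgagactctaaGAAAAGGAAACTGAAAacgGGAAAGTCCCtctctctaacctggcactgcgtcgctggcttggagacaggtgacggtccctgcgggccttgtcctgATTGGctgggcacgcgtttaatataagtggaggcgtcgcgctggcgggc
TAP1, chr6:32853705-32853954, minus strand: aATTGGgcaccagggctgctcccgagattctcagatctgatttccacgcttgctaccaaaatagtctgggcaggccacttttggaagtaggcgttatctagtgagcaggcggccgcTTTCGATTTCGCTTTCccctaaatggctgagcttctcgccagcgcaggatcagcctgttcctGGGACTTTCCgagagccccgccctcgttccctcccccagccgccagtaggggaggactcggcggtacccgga
TAP2, chr6:32838740-32838989, minus strand: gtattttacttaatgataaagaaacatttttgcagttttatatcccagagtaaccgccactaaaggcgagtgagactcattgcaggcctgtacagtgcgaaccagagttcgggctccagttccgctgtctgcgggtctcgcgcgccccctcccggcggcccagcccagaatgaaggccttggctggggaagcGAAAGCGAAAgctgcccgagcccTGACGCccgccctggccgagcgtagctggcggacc
Matches to the interferon-stimulated response element numbered 2 before B2M, 2 before TAP1, 1 before TAP2 and 1 before HLA-F, and the pair before B2M overlap each other, as does the pair before TAP1. The windows before HLA-B and HLA-C held NF-kappaB matches, an X2 core and CCAAT boxes. PSMB8 and TAP1 each have more than one start in RefSeq, and a gamma-activated site match, which reads the same on both strands of the motif, lies before one start of each gene. The starts of TAP1 and PSMB9 point away from each other and lie 488 bases apart. A match is a description of the letters and not a bound site, and the sequences are those of the reference genome. Only matches to each motif as written were marked, so a window without a match can still hold a site that departs from it.

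Libraries held between 14427040 and 17528910 estimated counts, which limits the precision of low genes. ADRA2A had 0 counts in all 4 empty-vector libraries and between 112 and 172 counts in the ADRA2A libraries. The duct and epithelial markers EPCAM, KRT7, KRT8, KRT18, KRT19, CDH1 and SOX9 were expressed in every library, while CFTR had between 4 and 20 counts. Abundances below are CPM, counts scaled to a common library total with TMM factors. The 12 leukocyte markers summed to between 2.31 and 3.01 CPM in the empty-vector libraries and to between 2.64 and 3.48 CPM in the ADRA2A libraries. Of these markers CD3D, CD3E, MS4A1, NCR1 and CD2 were at 0 in all 8 libraries. The 6 fibroblast markers summed to at most 2.16 CPM and the 5 endothelial markers to at most 3.35 CPM in any library. Of 8 tested duct and epithelial markers 3 rose, 4 fell and 1 did not pass edgeR's test; KRT7 fell by 0.43 and CDH1 by 0.33, and KRT19 rose by 0.20 on the log2 scale (edgeR adjusted p = 2.74e-09, 1.68e-07 and 7.64e-05). Of the 2 endothelial markers tested, PECAM1 rose from 0.773 ± 0.300 CPM to 2.44 ± 0.295 CPM and KDR fell from 1.23 ± 0.0604 to 0.482 ± 0.157 CPM (SD, n = 4 per group; edgeR adjusted p = 8.12e-05 and 0.00234). The part of these marker changes in the results below was not tested. With edgeR's quasi-likelihood test, 6314 of 14785 tested genes passed at a p-value of 0.05 after Benjamini-Hochberg adjustment (3195 higher and 3119 lower in the ADRA2A cells). Whether a group's libraries stem from different cultures is not given in the sources used here, so p-values measure only the spread between these samples.

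Of the 9 genes, 8 rose in the ADRA2A cells and TAP2 did not pass the test. Among all tested genes 42.7% were called in either direction and 21.6% were called higher. The median log2 fold change of the 9 genes was 0.58, against 0.00 for all genes tested. In the same 8 genes the 4 ADRA2A libraries lay wholly above the 4 empty-vector libraries, and 39.2% of all tested genes did not overlap between the groups. The rise was largest for the heavy chains HLA-F and HLA-E and for B2M, smaller for HLA-B and HLA-C, and smallest for TAP1, PSMB9 and PSMB8, in that order. In bulk RNA a change in the number of cells that express a gene and a change in RNA per cell cannot be told apart.

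**Figure D1:**
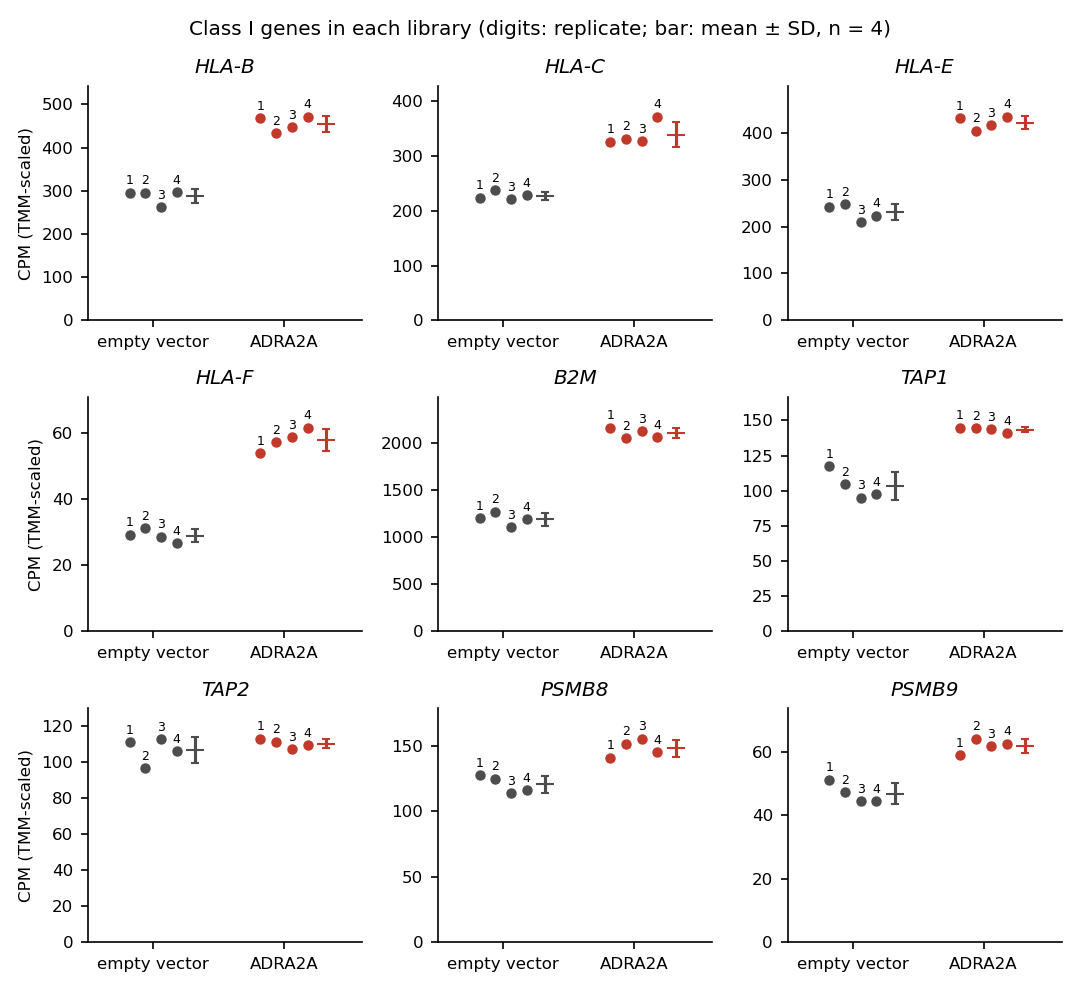
TMM-scaled CPM of the 9 genes in each library, on axes that start at 0, with digits for the replicate number and bars for the mean ± SD (n = 4). The ADRA2A libraries lie above the empty-vector libraries in every panel except TAP2, where the groups overlap.

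HLA-B (ENSG00000234745.11; chromosome 6, 31353872 to 31367067, minus strand) encodes a classical heavy chain. Its abundance was 295.7, 295.5, 262.6 and 296.3 CPM in empty-vector replicates 1 to 4 and 468.4, 432.8, 447.6 and 471.9 CPM in ADRA2A replicates 1 to 4. Empty-vector replicate 3 was the lowest of all, and the groups did not overlap. HLA-B rose 1.58-fold, or 0.66 on the log2 scale with an SE of 0.04 (adjusted p = 1.11e-10 by edgeR). HLA-C (ENSG00000204525.16; chromosome 6, 31268749 to 31272130, minus strand), the classical heavy chain that is also the main ligand of killer-cell immunoglobulin-like receptors, had 223.9, 237.9, 220.6 and 228.0 CPM in the empty-vector libraries. The ADRA2A libraries held 325.8, 331.6, 327.1 and 371.8 CPM of HLA-C, of which replicate 4 stood above the other three. HLA-C rose 1.49-fold, or 0.58 on the log2 scale with an SE of 0.04 (adjusted p = 1.29e-09 by edgeR).

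HLA-E (ENSG00000204592.9; chromosome 6, 30489509 to 30494194, plus strand) encodes a non-classical heavy chain that presents leader peptides of other class I chains and is the ligand of the NKG2A receptor of natural killer and T cells. It had 242.4, 247.1, 209.7 and 223.2 CPM in the empty-vector libraries and 431.5, 404.2, 416.0 and 434.3 CPM in the ADRA2A libraries. The lowest ADRA2A library of HLA-E was well above the highest empty-vector library, and the log2 fold change was 0.87 (SE 0.04; adjusted p = 6.87e-12 by edgeR), a 1.83-fold rise. HLA-F (ENSG00000204642.14; chromosome 6, 29722775 to 29738528, plus strand), another non-classical heavy chain, was the least abundant of the 4. Its CPM was 29.3, 31.3, 28.6 and 26.7 in the empty-vector libraries and 53.9, 57.2, 58.8 and 61.6 in the ADRA2A libraries. The log2 fold change of HLA-F, 1.00 (SE 0.06; adjusted p = 4.67e-11 by edgeR), was the highest of the 9 genes.

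Heavy chain genes and their pseudogenes are similar in sequence, and RSEM divides shared reads between them, so single heavy chain values carry that uncertainty. The HLA pseudogenes HLA-V and HLA-K, chosen after their values were seen, fell by 0.41 and 0.56 on the log2 scale (edgeR adjusted p = 0.000348 and 0.00336). HLA-H and HLA-J, at 0.18 (SE 0.26) and 0.31 (SE 0.44), did not pass the test (edgeR adjusted p = 0.603 and 0.605), so the pseudogenes did not move as one.

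B2M (ENSG00000166710.19; chromosome 15, 44711358 to 44718851, plus strand) encodes beta-2-microglobulin, the light chain that pairs with class I heavy chains. It is the one gene of the 9 that lies outside the major histocompatibility complex (MHC) of chromosome 6. B2M held 1204, 1276, 1107 and 1192 CPM in the empty-vector libraries and 2169, 2056, 2132 and 2070 CPM in the ADRA2A libraries. Every ADRA2A library was thus far above every empty-vector library, while the spread within a group was small, at 5.77% and 2.51% of the mean. The rise was 1.76-fold, or 0.82 on the log2 scale with an SE of 0.04 (adjusted p = 6.37e-13 by edgeR).

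TAP1 (ENSG00000168394.11; chromosome 6, 32845209 to 32853816, minus strand) and TAP2 (ENSG00000204267.14; chromosome 6, 32821833 to 32838739, minus strand) encode the 2 chains of the peptide transporter. TAP1 had 117.2, 104.4, 95.0 and 97.6 CPM in the empty-vector libraries and 144.8, 144.6, 143.5 and 140.9 CPM in the ADRA2A libraries. The empty-vector libraries of TAP1 varied more (9.61% of the mean) than the ADRA2A libraries (1.27%), with replicate 1 highest, and did not reach the ADRA2A values. TAP1 rose 1.38-fold, or 0.47 on the log2 scale with an SE of 0.05 (adjusted p = 4.54e-07 by edgeR).

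TAP2 had 111.2, 96.6, 112.8 and 106.1 CPM in the empty-vector libraries and 113.1, 111.4, 107.4 and 109.4 CPM in the ADRA2A libraries. These values overlapped, and the log2 fold change of 0.05 (SE 0.05; adjusted p = 0.445 by edgeR) did not pass the test. A readthrough row that joins HLA-DOB and TAP2 (AL669918.1) shares exons with TAP2 and differed by 0.05 on the log2 scale with an SE of 0.11 (adjusted p = 0.737 by edgeR). The ratio of TAP1 to TAP2 counts, chosen after its values were seen, ranged from 0.842 to 1.08 in the empty-vector libraries and from 1.28 to 1.34 in the ADRA2A libraries. It was higher in the ADRA2A cells by 0.42 on the log2 scale (two-sided exact permutation test, p = 0.0286, adjusted over 2 ratios chosen in this way p = 0.0286), the smallest p that 70 divisions can give. Because the separation was seen before the ratio was chosen, neither p allows for that choice, and the values stand as a description.

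PSMB8 (ENSG00000204264.10; chromosome 6, 32840717 to 32844679, minus strand) and PSMB9 (ENSG00000240065.8; chromosome 6, 32844136 to 32859851, plus strand) encode catalytic subunits that replace PSMB5 and PSMB6 when the immunoproteasome is built, as PSMB10 replaces PSMB7. PSMB8 had 127.7, 124.9, 113.7 and 116.2 CPM in the empty-vector libraries and 141.0, 151.6, 155.6 and 145.0 CPM in the ADRA2A libraries. The highest empty-vector library, replicate 1, lay below the lowest ADRA2A library, also replicate 1, and PSMB8 rose 1.23-fold, or 0.30 on the log2 scale with an SE of 0.04 (adjusted p = 2.06e-05 by edgeR). PSMB9 had 51.2, 47.4, 44.4 and 44.4 CPM in the empty-vector libraries and 59.0, 64.1, 61.7 and 62.6 CPM in the ADRA2A libraries. Its rise of 1.32-fold, or 0.40 on the log2 scale with an SE of 0.05 (adjusted p = 4.79e-06 by edgeR), was close to that of TAP1. PSMB10, the third such subunit, lies on chromosome 16 and rose 1.30-fold, from 29.9 ± 1.56 to 38.8 ± 1.61 CPM (SD, n = 4 per group; edgeR adjusted p = 2.62e-05).

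Of the constitutive partners, PSMB5 fell by 0.12 (SE 0.04) and PSMB6 by 0.18 (SE 0.05) on the log2 scale (edgeR adjusted p = 0.0297 and 0.00406), while PSMB7, at -0.11 (SE 0.05), did not pass the test (edgeR adjusted p = 0.0730). The ratio of PSMB8 to PSMB5 counts was 0.707, 0.697, 0.624 and 0.643 in the empty-vector libraries and 0.897, 0.850, 0.896 and 0.933 in the ADRA2A libraries. PSMB9 to PSMB6 went from a range of 0.556 to 0.680 to a range of 0.872 to 0.965. PSMB10 to PSMB7 went from a range of 0.314 to 0.362 to a range of 0.437 to 0.521. None of these 3 ratios overlapped between the groups, and their differences were 0.42, 0.58 and 0.49 on the log2 scale. Each had p = 0.0286 in a two-sided exact permutation test over the 8 libraries, the smallest p the design allows, and p = 0.0381 adjusted over 4 ratios. PSMB8 and PSMB9 lay wholly higher, and PSMB5 and PSMB6 wholly lower, in the ADRA2A libraries. PSMB8/PSMB5 and PSMB9/PSMB6 therefore had to separate. The genes were chosen with earlier results of these data known, and these p-values do not allow for that choice.

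The fourth ratio set TAP1 against PSMB9, whose RefSeq starts lie close together on opposite strands. It ranged from 2.14 to 2.29 in the empty-vector libraries and from 2.25 to 2.46 in the ADRA2A libraries. The ranges overlapped, and the difference of 0.07 on the log2 scale did not pass the exact permutation test (p = 0.0857, and 0.0857 adjusted); without ADRA2A replicate 1 the difference was 0.05. In GENCODE release 44 the PSMB9 locus spans the whole of TAP1 and overlaps PSMB8 and the antisense gene PSMB8-AS1. For PSMB8-AS1 the log2 fold change was 0.53 (SE 0.09; adjusted p = 0.000147 by edgeR). Strand use in counting was not given in the sources used here, so the division of reads among these overlapping genes cannot be checked.

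**Figure D2:**
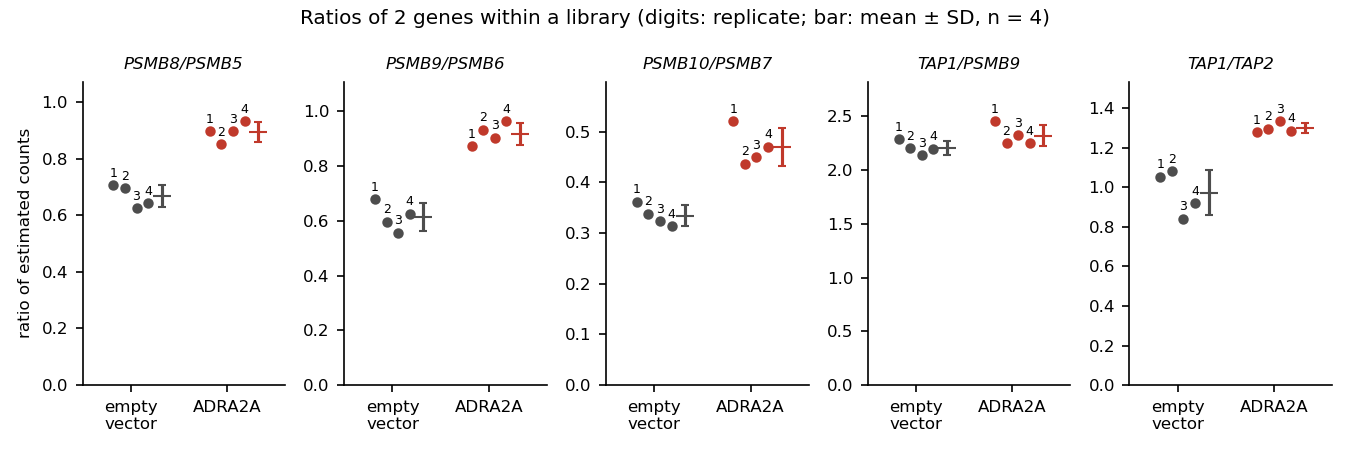
Ratio of the estimated counts of 2 genes within each library, on axes that start at 0, with digits for the replicate number and bars for the mean ± SD (n = 4). The 3 immunoproteasome ratios and TAP1/TAP2 are separated between the groups, while TAP1/PSMB9 overlaps.

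Levels of different genes can be compared only per length. Scaled by the length of the canonical transcript to TPM, a unit in which each library sums to the same total, B2M was at 2901 ± 169 in the empty-vector cells, HLA-B at 429 ± 27.9, HLA-C at 338 ± 10.5, PSMB8 at 246 ± 14.6 and HLA-E at 207 ± 16 (SD, n = 4 each). PSMB9 at 105 ± 7.82 and TAP1 at 88.4 ± 9.08 followed, and HLA-F at 44.8 ± 2.61 and TAP2 at 43.3 ± 3.17 (SD, n = 4 each) were the lowest. HLA-F and TAP2 were the only neighbours in that order whose means differed by less than the sum of their SDs. In the ADRA2A cells HLA-E, at 381 ± 18.1, stood above PSMB8, at 304 ± 9.05, and HLA-F, at 90.0 ± 5.13, stood above TAP2, at 45.0 ± 1.48 TPM (SD, n = 4 each).

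The other genes that make, trim, carry or load class I peptides moved in both directions. Of 22 such genes, all tested, 8 rose, 9 fell and 5 did not pass the test, with a median log2 fold change of -0.02 against 0.00 for all genes tested. Over all genes tested 21.6% rose and 21.1% fell. TAPBP, which encodes the tapasin bridge between TAP and the heavy chain, rose from 290 ± 10.4 CPM to 344 ± 23.8 CPM (SD, n = 4 per group; 0.25 on the log2 scale, SE 0.04; adjusted p = 0.000121 by edgeR). SEC61A1, a subunit of the translocon of the endoplasmic reticulum, rose by 0.26 on the log2 scale (edgeR adjusted p = 6.05e-06). ERAP1, an aminopeptidase that trims peptides, rose by 0.23 and its relative ERAP2 fell by 0.25 on the log2 scale (edgeR adjusted p = 0.000196 and 0.0211). The chaperone calreticulin (CALR) fell by 0.16, and PSMF1, a proteasome inhibitor subunit, fell by 0.35 on the log2 scale (edgeR adjusted p = 0.00159 and 2.07e-06). All 22 log2 fold changes lay between -0.35, that of PSMF1, and 0.38, that of PSMB10, which is below those of 7 of the 9 class I genes.

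**Figure D3:**
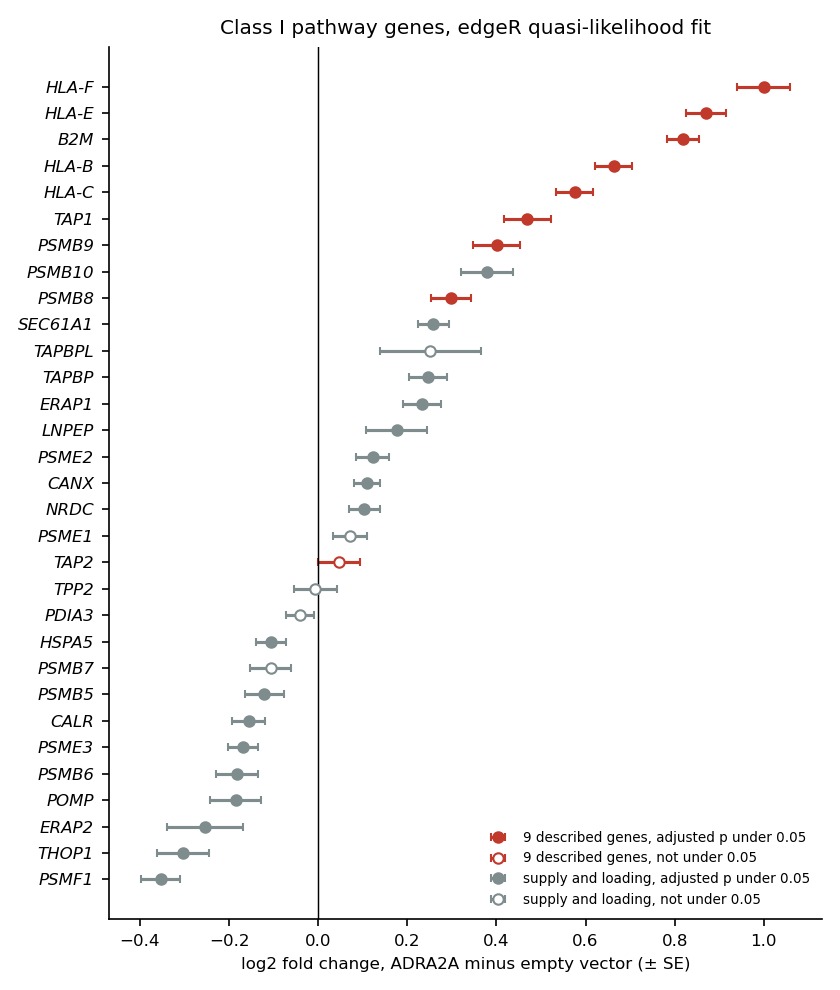
Log2 fold change (ADRA2A minus empty vector, ± SE) of the 9 genes in red and of the 22 supply and loading genes in grey, with open symbols where the edgeR adjusted p-value was not under 0.05. HLA-F, HLA-E, B2M, HLA-B, HLA-C, TAP1 and PSMB9 lie above every grey gene, and PSMB8 and TAP2 do not.

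The position of the genes was examined because 8 of the 9 lie in the MHC. Between HLA-F and TAPBP 136 genes were tested, and 116 of them were neither among the 9 genes nor other class I or class II presentation genes. Of these 116 genes 22 (19.0%) rose and 18 (15.5%) fell, with a median log2 fold change of 0.00, against 21.6% and 21.1% of all tested genes. Among the 20 tested genes nearest to B2M on chromosome 15, 10 on each side, 7 rose and 2 fell, with a median log2 fold change of 0.08.

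**Figure D4:**
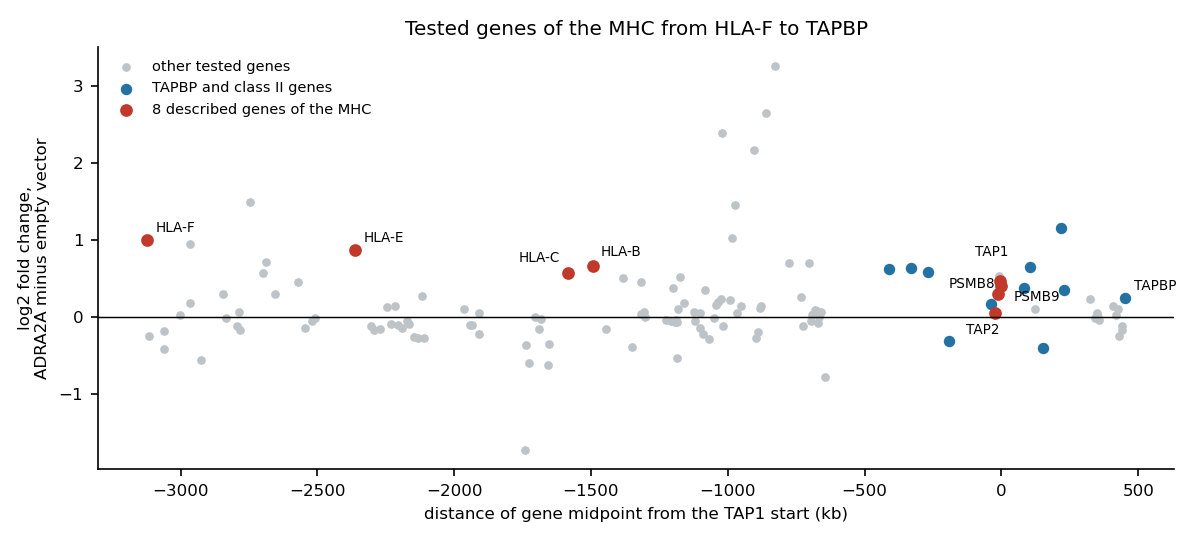
Log2 fold change (ADRA2A minus empty vector) of the tested genes of the MHC from HLA-F to TAPBP, by the distance of the gene midpoint from the TAP1 start in kb. The 8 described genes (red) lie at 0.05 (TAP2) or higher; TAPBP and class II genes are in blue, and the neighbours (grey) lie on both sides of 0.

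Class II antigen presentation genes, which professional presenting cells and some carcinoma cells use to show peptides to CD4+ T cells, were examined beside class I. Of 13 genes 12 were tested, 8 rose and 4 did not pass the test. In the whole tested set 21.6% of genes were called higher and 21.1% lower. The 12 class II genes had a median change of 0.48 on the log2 scale. CD74, the invariant chain, rose from 636 ± 12.6 CPM to 1032 ± 42.4 CPM (SD, n = 4 per group; 0.70 on the log2 scale, SE 0.03; adjusted p = 1.63e-12 by edgeR). HLA-DRA rose from 121 ± 1.77 CPM to 187 ± 4.22 CPM and HLA-DPA1 from 27.5 ± 1.30 to 61.5 ± 3.14 CPM (SD, n = 4 per group; edgeR adjusted p = 3.43e-11 and 2.19e-12). CIITA, the class II transactivator, differed by 0.17 on the log2 scale with an SE of 0.09 (adjusted p = 0.124 by edgeR).

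Among 17 regulators of class I transcription, 5 rose, 3 fell and 9 did not pass the test, with a median log2 fold change of 0.03. These counts stand beside 21.6% of all tested genes called higher and 21.1% called lower. NLRC5, the class I transactivator, had 17.5, 11.6, 12.7 and 15 CPM in the empty-vector libraries and 19.8, 18.5, 19.5 and 19.7 CPM in the ADRA2A libraries. The groups did not overlap, although empty-vector replicate 1 came near the ADRA2A values, and NLRC5 rose by 0.45 on the log2 scale (SE 0.10; edgeR adjusted p = 0.00143). IRF1 rose from 69.4 ± 1.65 CPM to 84.4 ± 2.83 CPM (SD, n = 4 per group; edgeR adjusted p = 2.37e-05). EZH2, the catalytic subunit of the Polycomb complex that can silence class I genes, fell by 0.20 on the log2 scale (edgeR adjusted p = 0.000493). CREB1 and SUZ12 also fell, by 0.17 and 0.12 on the log2 scale (edgeR adjusted p = 0.00517 and 0.0203). RFX5, RELA and NFKB1, at -0.03, -0.04 and -0.11, did not pass the test (edgeR adjusted p = 0.701, 0.452 and 0.0808).

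Of 14 tested receptors, kinases and feedback genes of interferon signalling, 8 rose, 1 fell and 5 did not pass the test, with a median log2 fold change of 0.27. For all tested genes these shares were 21.6% higher and 21.1% lower. JAK1, the kinase shared by all interferon receptors, rose by 0.31, IFNGR1, a chain of the interferon gamma receptor, rose by 0.35, and IRF9, a DNA-binding subunit of the complex that type I interferons activate, rose by 0.51 on the log2 scale (edgeR adjusted p = 1.04e-06, 3.26e-05 and 4.88e-05). Of 8 interferon genes examined, IFNG, IFNB1, IFNA1 and IFNK were at 0 in all 8 libraries. A count of 0 allows up to 3 counts, or between 0.171 and 0.208 CPM in a library. IFNE was the single interferon gene tested, and it rose from 1.41 ± 0.657 CPM to 2.73 ± 0.445 CPM (SD, n = 4 per group; edgeR adjusted p = 0.0135). The groups lay close, with 2.10 CPM in empty-vector replicate 2 and 2.24 CPM in ADRA2A replicate 2. Empty-vector replicate 4 was the lowest, at 0.524 CPM. Over the alternative fits the log2 fold change of IFNE lay between 0.68 and 1.18.

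Interferon targets were examined next, beside 21.6% of all tested genes called higher and 21.1% called lower. Of 35 type I interferon targets, all tested, 33 rose, the median over all 35 was 0.65 on the log2 scale, and the other two, DDX58 and HERC5, had log2 fold changes of 0.11 (SE 0.07) and 0.21 (SE 0.11; adjusted p = 0.205 and 0.126 by edgeR). IFI6 rose from 60.0 ± 13.5 CPM to 147 ± 2.27 CPM, IFITM1 from 111 ± 15.9 to 219 ± 10.2 CPM and BST2 from 119 ± 11.8 to 188 ± 3.42 CPM (SD, n = 4 per group; edgeR adjusted p = 2.02e-09, 8.11e-10 and 4.63e-09). The list of interferon gamma and IRF1 targets had 15 tested genes, of which 9 rose, 1 fell and 5 did not pass the test, with a median log2 fold change of 0.18. GBP2, GBP3 and GBP4, guanylate-binding protein genes, rose by 0.67, 0.45 and 0.80 on the log2 scale (edgeR adjusted p = 1.31e-08, 4.47e-08 and 4.91e-08), and CD274, which encodes PD-L1, fell by 0.92 (edgeR adjusted p = 4.62e-07).

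The empty-vector libraries differed among themselves in these genes. The mean log2 CPM of the 35 type I targets, centred on each gene's average of 8 libraries, was -0.05, -0.29, -0.66 and -0.37 in empty-vector replicates 1 to 4 and 0.28, 0.31, 0.33 and 0.44 in ADRA2A replicates 1 to 4. For the 9 class I genes the same measure was -0.22, -0.25, -0.36 and -0.32 in the empty-vector libraries and 0.27, 0.28, 0.28 and 0.31 in the ADRA2A libraries. Both sets were lowest in empty-vector replicate 3 and highest, within that group, in replicate 1. Empty-vector replicate 3 was the lowest of its group in 33 of the 35 type I targets and in 6 of the 9 class I genes. Replicate 1 was the highest of its group in 32 of the 35 type I targets and in 3 of the 9 class I genes, and replicate 2 was the highest in 3 and 4. The part that this variation in interferon targets has in the class I differences was not tested. All 8 class I calls were made in each of the 8 fits that left out 1 library; without empty-vector replicate 3 the log2 fold change of TAP1 was 0.43 and without empty-vector replicate 1 it was 0.53.

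**Figure D5:**
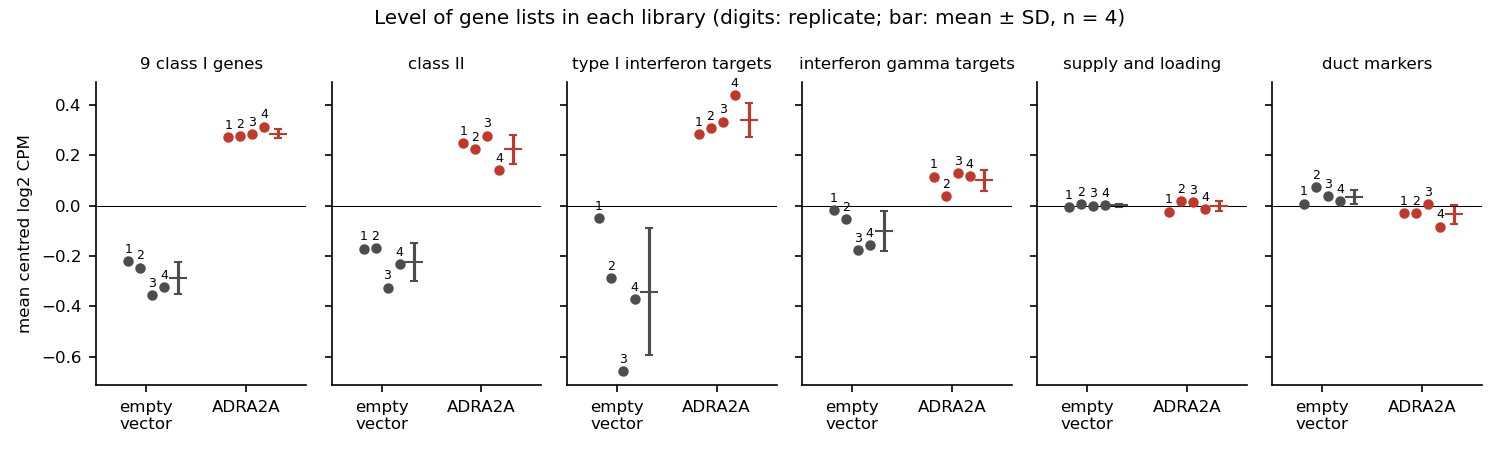
Centred log2 CPM, averaged over the tested genes of each of 6 gene lists, with digits for the replicate number and bars for the mean ± SD (n = 4). The type I interferon targets spread from -0.66 to -0.05 over the empty-vector libraries, while the 9 class I genes spread from -0.36 to -0.22 there.

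The genes whose profile over the 8 libraries was most like the mean of the 9 genes, among 10151 other genes with a mean of at least 10 CPM, were CAMK1D, PRR15L, AGT, ATP6V0A1 and C16orf45. Pearson's r lay between 0.994 and 0.995, and it is given as a description because the libraries form 2 separate groups. CAMK1D, a calcium/calmodulin-dependent kinase gene, rose from 13.8 ± 1.2 CPM to 30.0 ± 0.814 CPM, and AGT, the angiotensinogen gene, rose from 5.48 ± 0.612 CPM to 28.0 ± 2.05 CPM (SD, n = 4 per group; edgeR adjusted p = 3.35e-10 and 2.18e-13).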

How the data were processed

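RNA sequencing libraries of 8 CFPAC-1 samples were represented by 1 table of estimated counts per gene, deposited by the authors as gene-level RSEM output and not scaled between samples. The submitters' processing notes name cutadapt, STAR, RSEM, DESeq2 and the build hg38; roles, versions, annotation and strand use are not given in the sources used here. All 8 columns were assigned by the name in each sample's title. Estimated counts were rounded. Genes were kept by filterByExpr in edgeR 4.0.16 (R 4.3.3), which left 14785 genes, scaled by TMM and tested with glmQLFit and glmQLFTest on the group term over all 8 libraries; Benjamini-Hochberg values cover all genes tested, with a threshold of 0.05. The SE is the absolute log2 fold change divided by the square root of F. Gene positions and canonical transcript lengths came from GENCODE release 44 (GRCh38), matched by identifier for 99.4% of genes. Ratios were tested over 70 divisions of the libraries. Some genes, and 1 ratio chosen with its values in view, are not reported here. On simulated data for this comparison, with 14652 genes passing the filter, 56.7% of 67 genes with a log2 change of 0.32, 86.6% of 67 with 0.58 and 93.9% of 66 with 1 were recovered. Of the genes left unchanged in the simulation, 13 were called. Far fewer genes were changed there than were called in the data. The adjusted threshold was thus stricter there, and these shares need not hold for the data. Replicates of a group differed by more than sampling noise (chi-square per degree of freedom between 2.15 and 4.56). The 9 genes and the gene lists were chosen with earlier results of these data known. The rule for other genes named took TAPBP, PSMB10, NLRC5, IRF1 and further genes, the 3 smallest p-values of each list and the 5 most similar profiles; any further gene was picked with its values in view. WARS and WARS1 in the interferon gamma list name the same gene. Alternatives were DESeq2 1.42.0, limma 3.58.1 voom, RLE and upper quartile factors, other filters, a replicate block, and fits without each library in turn.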

Additional observations from a re-analysis of the deposited data

Results flagged for a closer look

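In groups of 4 libraries, a library was marked where its gap to the nearest other, divided by the range of the group, exceeded Dixon's critical value. Chance marks about 1 in 20 groups, and 7 of 100 were marked over the 50 genes named. HLA-B was low in empty-vector replicate 3 (gap share 0.977), at 262.6 CPM against 295.5 to 296.3 CPM in the other three. HLA-C was high in ADRA2A replicate 4 (0.874), at 371.8 CPM against 325.8 to 331.6 CPM. Without these libraries the calls for both genes stayed under the threshold. IRF1 was low in ADRA2A replicate 2 (0.842), at 80.2 CPM against 85.4 to 86.4 CPM. GBP3 was low in ADRA2A replicate 1 (0.844) and HFE, a class I-like gene, was high there (0.863). The markers LUM, low in empty-vector replicate 1 (0.882), and PECAM1, high in empty-vector replicate 2 (0.913), were at most 1.51 and 1.22 CPM in the empty-vector libraries.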

How the results depend on the processing

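The 9 class I genes kept their direction and their side of the threshold under all 15 alternatives, and the numbers called, 8 higher and 0 lower, did not move. No member had a negative log2 fold change in edgeR, DESeq2 or limma voom. The log2 fold change of TAP2 lay between 0.00 and 0.07. Of the other pathway genes 131 were tested, 81 called higher and 16 lower, beside 21.6% and 21.1% of all tested genes. The same-numbered replicates of the groups did not deviate together (correlations of 0.045, -0.029, 0.153 and 0.063), so the numbers were not taken to pair samples. With the replicate block, edgeR called 3247 genes higher and 3153 lower, with 80 and 17 pathway genes. A sign-flip permutation within replicate numbers cannot go below p = 0.125. Under this replicate block the log2 differences were 0.42 for PSMB8/PSMB5, 0.58 for PSMB9/PSMB6, 0.49 for PSMB10/PSMB7 and 0.42 for TAP1/TAP2, with no call possible. The mean of same-numbered differences equals the difference of group means, so these values could not depart from the main ones. Leaving out 1 library allows no p under 0.0571; the log2 differences then lay between 0.39 and 0.45 for PSMB8/PSMB5, 0.54 and 0.63 for PSMB9/PSMB6, 0.44 and 0.53 for PSMB10/PSMB7, 0.36 and 0.48 for TAP1/TAP2, and 0.05 and 0.09 for TAP1/PSMB9.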

Other observations

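Class I-like molecules and ligands of the NKG2D receptor did not move as one. Of 8 tested genes 4 rose, 1 fell and 3 did not pass the test, where 21.6% of the whole tested set rose and 21.1% fell. The 8 genes had a median change of 0.39 on the log2 scale. MR1, which presents vitamin B metabolites to mucosal-associated invariant T cells, rose from 20.9 ± 0.569 CPM to 42.2 ± 2.35 CPM (SD, n = 4 per group; edgeR adjusted p = 6.14e-11). FCGRT, the heavy chain of the neonatal Fc receptor and a partner of B2M, rose from 41.9 ± 0.908 CPM to 60.6 ± 2.23 CPM, and HFE, another B2M partner, from 41.9 ± 0.825 to 52.4 ± 2.77 CPM (SD, n = 4 per group; edgeR adjusted p = 2.59e-08 and 3.54e-05). MICB, a stress ligand, fell by 0.38 on the log2 scale (edgeR adjusted p = 0.00340).

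Ligands of inhibitory receptors went both ways, with 5 of 9 tested genes higher and 2 lower, beside 21.6% and 21.1% of all tested genes. HHLA2, a B7 family gene, rose from 6.34 ± 1.12 CPM to 36.8 ± 1.98 CPM, CEACAM1 from 39.2 ± 2.23 to 64.5 ± 4.15 CPM and CD47 from 351 ± 17.6 to 449 ± 6.64 CPM (SD, n = 4 per group; edgeR adjusted p = 6.55e-14, 3.82e-09 and 1.32e-07). PVR, the poliovirus receptor, fell by 0.28 on the log2 scale (edgeR adjusted p = 9.98e-06).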
